A study of Rattus norvegicus with 8 samples.

Results

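Gap junction and cadherin mRNA was examined in the injured rat carotid artery through 8 genes of the 37209 in the count table, each taken by its symbol. They were the 4 vascular connexins Gja1, Gja4, Gja5 and Gjc1 and the 4 cadherins Cdh2, Cdh6, Cdh11 and Cdh13, grouped here as cadherins of mesenchymal cells. The rule used symbols and no measured value, but it was set with earlier results of these data known. All 8 had a row, and all 8 had enough counts to be tested.

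Connexins are membrane proteins that assemble into channels. A channel of one cell docks with that of its neighbour, and the resulting gap junction lets ions and small molecules pass between smooth muscle cells, between endothelial cells and between both layers of the vessel wall. Gja1 (connexin Cx43) and Gjc1 (Cx45) are known from smooth muscle, whereas Gja4 (Cx37) and Gja5 (Cx40) are known mainly from arterial endothelium. Classical cadherins are calcium-dependent adhesion proteins that bind the same cadherin on the next cell and are anchored to actin inside the cell by catenins. Cdh2 (N-cadherin), Cdh6 (K-cadherin) and Cdh11 (OB-cadherin) are of this kind, while Cdh13 (T-cadherin) has no cytoplasmic tail and is held in the membrane by a lipid anchor.

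Transcriptome sequencing compared 4 injured left carotid arteries with 4 undamaged right carotid arteries of male Sprague-Dawley rats. A balloon catheter had been used to strip and stretch the intima, and the vessels were taken 2 weeks later, so the controls came from rats that had undergone the operation on the other side. The paper calls the right artery a self-control, but the labels do not say which arteries share a rat. The main tests therefore left pairing out. No age was given. Each library was RNA of a whole vessel, in which fewer cells of a type and less RNA per cell cannot be told apart. The number of counted reads was between 13470754 and 15276952 in the control arteries and between 11459632 and 16658089 in the injured arteries, and 3 counts corresponded to 0.168 to 0.246 CPM. CPM is the count divided by the library size after TMM normalization and multiplied by the usual constant, and it is the scale of every level below.

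The arteries were checked against markers of their cells. The 10 smooth muscle markers summed to between 18864 and 54165 CPM in the control arteries and between 11781 and 18256 CPM in the injured arteries, and 6 of them were called lower, among them Acta2 and Myh11. The 11 endothelial markers overlapped between the groups, at 991 to 2519 CPM against 959 to 1360 CPM. The extraction note in the labels names a piece of brain, whereas the other labels name the carotid artery. The 9 brain markers summed to 2365 CPM in control artery 4, 596 CPM in injured artery 3 and 5.91 to 80.5 CPM in the other arteries. Within that list Syt1 and Snap25, synaptic genes that peripheral neurons also express, had 27147 and 6177 counts in control artery 4, and the glial Gfap had 3497 counts in injured artery 3. No artery had more than 2 counts of Neurod6 or of Gad2. These were the only 2 of the 9 brain markers with at most 3 counts in every artery. All others exceeded 3 counts in at least 1 artery. The part of brain RNA in these libraries was not tested. Sympathetic neuron markers stood at 10526 CPM in control artery 4 and 3058 CPM in injured artery 3, at 201 CPM in injured artery 1 and at no more than 9.91 CPM in the other arteries. Control artery 4 also had the lowest smooth muscle and fibroblast sums of the controls, and across genes it stood apart in log2 CPM, with correlations of 0.83 to 0.852 to controls 1 to 3, each of which reached 0.977 to 0.978 with its nearest control. Results are therefore given with and without it where it changes them.

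Intimal injury was accompanied by opposite changes in Gja4 and Gja5, the connexins known mainly from arterial endothelium. Gja4 rose 2.06-fold and Gja5 fell 2.35-fold, and of the cadherins Cdh6 fell 2.26-fold. These 3 of the 8 genes were called, 1 higher and 2 lower, with the quasi-likelihood test of edgeR. A call needed a p-value below 0.05 after Benjamini-Hochberg adjustment over every gene tested, given below as the FDR, and a change of more than 2-fold. Over the 14359 genes tested, 10.9% were called, 8.31% higher and 2.57% lower after injury. The levels of Gja4 and Gja5 did not overlap between the groups, which held for 2 of the 8 genes and for 23.7% of all genes tested. The log2 fold changes of the 8 genes were positive in 4 and negative in 4, with a median of 0.10 against -0.06 over all genes tested. No member passed a test against a fold change of 2, for which a change has to exceed 2-fold beyond its error. Without control artery 4, where 16.2% of all genes were called, Gja5 was the only called member, because the changes of Gja4 and Cdh6 then stood just under 2-fold.

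**Figure D1:**
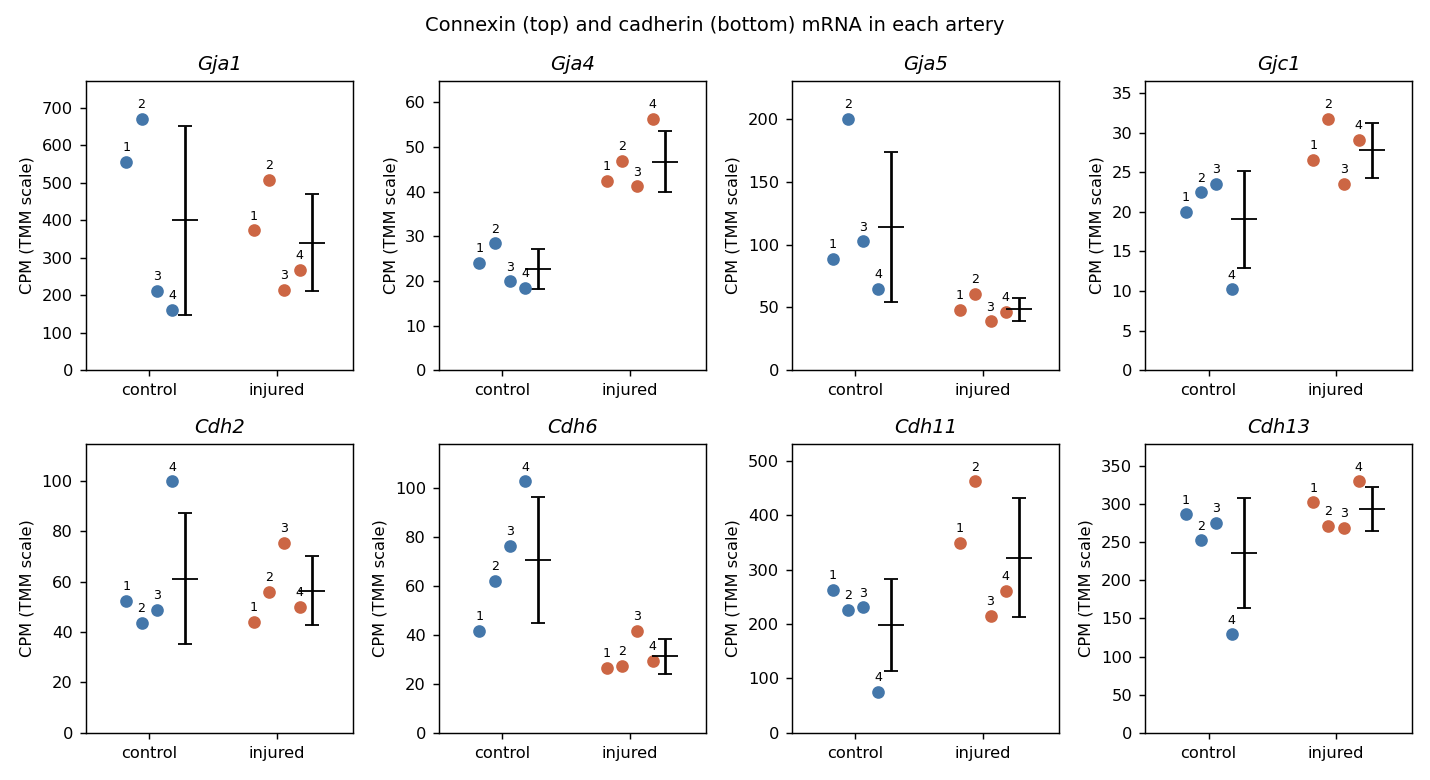
Level of each connexin (upper panels) and cadherin (lower panels) in CPM on linear axes that start at 0. Points are the arteries, numbered as in the labels, and the black bars are the mean and SD of 4. The injured arteries lie above every control for Gja4 and below every control for Gja5, and control artery 4 is the highest control for Cdh2 and Cdh6 and the lowest for Gja1, Gja4, Gja5, Gjc1, Cdh11 and Cdh13.

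The sequence before the annotated start was available for 4 of the 8 genes, the 3 called genes and Gja1, and is shown so that the genes which moved apart can be compared at their promoters. The letters are RefSeq's for the rat assembly GRCr8, which need not be the build behind the counts. Each line holds the 200 bases up to the base before the start, 5′ to 3′ on the strand of the gene. Capitals mark matches on either strand to a TATA box (TATAAA), a GC box (GGGCGG) or an AP-1 site (TGANTCA).
Gja4, chr5:144920325-144920524, minus strand: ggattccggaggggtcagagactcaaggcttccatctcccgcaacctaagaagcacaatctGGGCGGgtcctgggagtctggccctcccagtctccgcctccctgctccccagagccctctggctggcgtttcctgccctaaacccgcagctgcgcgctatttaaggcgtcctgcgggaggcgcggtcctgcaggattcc
Gja5, chr2:187291027-187291226, plus strand: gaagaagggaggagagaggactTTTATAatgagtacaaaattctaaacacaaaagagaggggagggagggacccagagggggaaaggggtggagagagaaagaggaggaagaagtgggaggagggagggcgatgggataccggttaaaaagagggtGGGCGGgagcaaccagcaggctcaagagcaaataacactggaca
Cdh6, chr2:63952288-63952487, minus strand: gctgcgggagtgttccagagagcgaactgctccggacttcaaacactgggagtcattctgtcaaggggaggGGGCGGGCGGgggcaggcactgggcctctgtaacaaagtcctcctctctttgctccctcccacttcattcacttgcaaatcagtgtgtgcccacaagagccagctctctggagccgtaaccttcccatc
Gja1, chr20:36302364-36302563, plus strand: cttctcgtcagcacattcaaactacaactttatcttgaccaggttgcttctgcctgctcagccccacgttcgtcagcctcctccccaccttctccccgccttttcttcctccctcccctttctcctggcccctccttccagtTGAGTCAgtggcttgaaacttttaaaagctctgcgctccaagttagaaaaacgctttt

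The GC box, which Sp1-type factors can bind, was present in Gja4, Gja5 and Cdh6, the 3 called genes, and 30.5% of the 33469 promoters in the table hold it within 250 bases before the start. It began 139 bases before the start in Gja4 and 44 bases before it in Gja5, and Cdh6 had 2 overlapping matches at 129 and 125 bases. The AP-1 site lay 58 bases before the start of Gja1, and 6.34% of all promoters hold one. The TATA box of Gja5 was a match on the opposite strand 178 bases before the start, and 12.9% of promoters hold one on either strand. These are matches of letters, and no binding was measured here.

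Gja4 encodes a connexin of arterial endothelium. Its level was 24.0, 28.4, 19.9 and 18.3 CPM in control arteries 1 to 4 and 42.3, 46.9, 41.2 and 56.3 CPM in injured arteries 1 to 4. Every injured artery lay above every control. The highest control was 1.55 times the lowest, and the highest injured artery 1.37 times the lowest. The mean went from 22.6 ± 4.50 to 46.7 ± 6.87 CPM (± SD, n = 4 in each group). The log2 fold change was 1.04 (SE, the standard error, 0.17, 95% interval 0.64 to 1.44, edgeR FDR 0.00576). The exact permutation test of log2 CPM over the 70 relabellings gave a two-sided p of 0.0286, the smallest that 4 against 4 arteries allow. Leaving out control artery 3, control artery 4 or injured artery 4 ended the call through the fold criterion, with log2 fold changes of 0.98, 0.95 and 0.94 and edgeR FDR values of 0.0237, 0.00433 and 0.0238.

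Gja5 encodes the other endothelial connexin, which is typical of arteries rather than veins. Its level was 88.6, 200.04, 102 and 64.8 CPM in control arteries 1 to 4 and 47.9, 60.8, 38.8 and 46.4 CPM in injured arteries 1 to 4. The controls were spread 3.09-fold and control artery 2 was far above the rest, while the injured arteries were within 1.57 times of each other and all lay below the lowest control, control artery 4. The mean went from 114 ± 59.5 to 48.5 ± 9.13 CPM (± SD, n = 4 in each group), a log2 fold change of -1.23 (SE 0.34, 95% interval -2.01 to -0.46). The edgeR FDR was 0.0405. The exact permutation p was again 0.0286. This call was close to the threshold, and 7 of the 8 fits that each left out 1 artery lost it. Without control artery 2 the log2 fold change was -0.82 (edgeR FDR 0.0482), which misses the fold criterion. The fit without control artery 4 kept the call, at -1.43 (edgeR FDR 0.00777). In the other 6 fits the edgeR FDR was between 0.0585 and 0.115. With library totals in place of TMM factors, which moved the median of all genes by 0.178 on the log2 scale, it was -1.04 (edgeR FDR 0.0553).

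The ratio of Gja4 to Gja5 counts within an artery does not depend on the scaling between libraries. It was 0.271, 0.142, 0.194 and 0.283 in control arteries 1 to 4 and 0.884, 0.771, 1.06 and 1.21 in injured arteries 1 to 4. The lowest injured artery was thus above the highest control. This ratio, and the next ones, were chosen after the values were seen and are given without a test. Relative to Pecam1, an adhesion molecule of endothelial cells that was not called, Gja4 was at 0.120 to 0.142 in the control arteries and at 0.290 to 0.444 in the injured arteries, without overlap. Gja5 relative to Pecam1 was at 0.491 to 0.855 and at 0.304 to 0.576, with overlap through injured artery 2.

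Endothelial genes themselves went apart, with 3 of the 11 markers called higher (Cdh5, Kdr and Emcn) and 1 called lower (Vwf). The ratio of Gja4 to Cdh5, the cadherin of endothelial junctions, was 0.327 to 0.537 in the control arteries and 0.348 to 0.413 in the injured arteries, so these 2 genes kept overlapping ratios. The ratio of Gja5 to Vwf, the von Willebrand factor stored by endothelial cells, was 0.113 to 0.146 and 0.131 to 0.255. The part of endothelial cell number in the changes of Gja4 and Gja5 was not tested.

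Gja1 encodes the most widely expressed connexin, found in smooth muscle, fibroblasts and many other cells. Its level was 555, 670, 212 and 160 CPM in control arteries 1 to 4 and 373, 507, 215 and 268 CPM in injured arteries 1 to 4. The arteries numbered 1 and 2 were above those numbered 3 and 4 in both groups, and the groups overlapped widely. The spread within the controls was 4.19-fold, the widest of the 8 genes. The log2 fold change was -0.23 (SE 0.49, edgeR FDR 0.785), and its 95% interval of -1.36 to 0.90 does not exclude a 2-fold change downward. The sign turned without control artery 2, at 0.13.

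Gjc1 encodes a connexin of smooth muscle and of the cardiac conduction system. Its level was 19.95, 22.5, 23.6 and 10.2 CPM in control arteries 1 to 4 and 26.6, 31.8, 23.5 and 29.1 CPM in injured arteries 1 to 4. The groups met at control artery 3 and injured artery 3, and control artery 4 was lowest. The log2 fold change of 0.54 (SE 0.26, 95% interval -0.05 to 1.13) was not called (edgeR FDR 0.194). Without control artery 4 it was 0.33 (edgeR FDR 0.0987). Without control artery 4 and injured artery 3, a fit chosen after seeing the data, it was 0.41 (95% interval 0.12 to 0.69, edgeR FDR 0.0363). That change was under 2-fold and was not called.

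**Figure D2:**
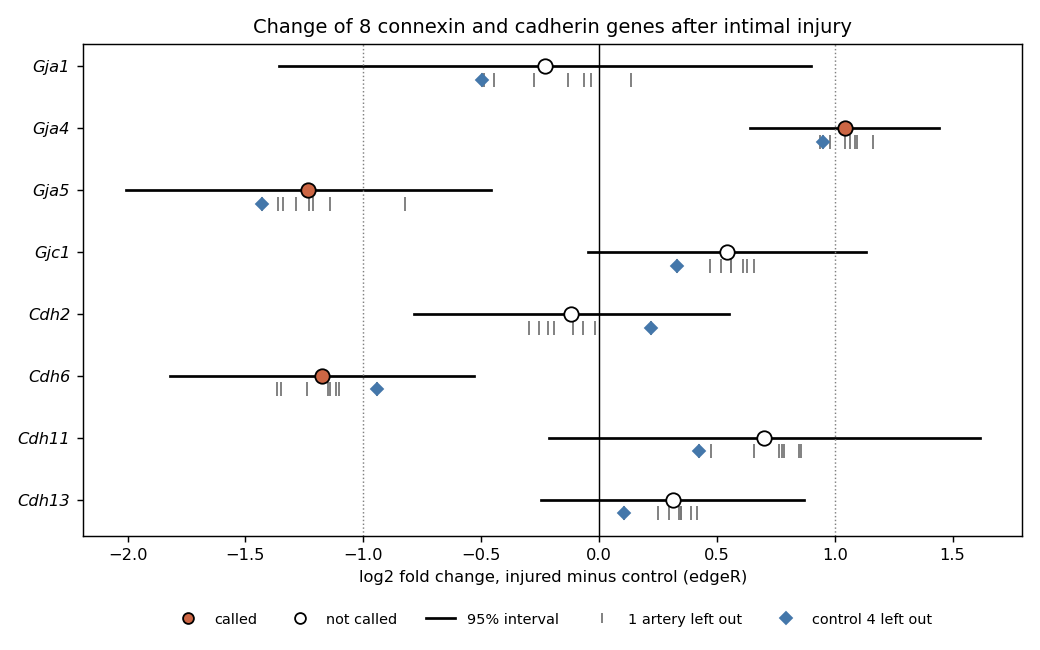
Log2 fold change of the 8 genes, injured minus control, from edgeR. Circles are the fit of all 8 arteries with its 95% interval, filled where called, grey ticks are the fits that left out 1 artery and diamonds the fit without control artery 4, and dotted lines mark a 2-fold change. The called Gja4, Gja5 and Cdh6 and the uncalled Gjc1, Cdh11 and Cdh13 stay on one side of 0 in all of these fits, whereas Gja1 and Cdh2 cross it.

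The make-up of the connexin counts was compared as the share of each gene in the counts of all 4 within an artery, which were 3646 to 11233. The exact binomial interval (Clopper-Pearson) of any of these shares was at most ±1.58 percentage points wide, for counting error only. A share of counts also depends on transcript length, so shares are compared between arteries and not between genes. The share of Gja1 was 69.0% ± 9.68 (SD, n = 4) in the controls and 72.3% ± 5.86 (SD, n = 4) in the injured arteries. The share of Gja5 was 12.9, 21.7, 28.6 and 25.6% in control arteries 1 to 4 and 9.79, 9.41, 12.2 and 11.6% in injured arteries 1 to 4. All injured arteries were lower, by 11.4 percentage points in the mean (exact permutation test, p = 0.0286, two-sided, the smallest possible). The share of Gja4 was 3.49, 3.08, 5.56 and 7.24% in the controls and 8.65, 7.25, 12.9 and 14.1% in the injured arteries, with the same p in the exact permutation test. Control artery 4 and injured artery 2, at 7.24 and 7.25%, differ by less than the counting error, so the separation of the groups rests on a difference that these counts cannot resolve. The share of Gjc1 overlapped, at 2.44 to 6.58% against 4.92 to 7.39% (exact permutation p = 0.114).

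**Figure D3:**
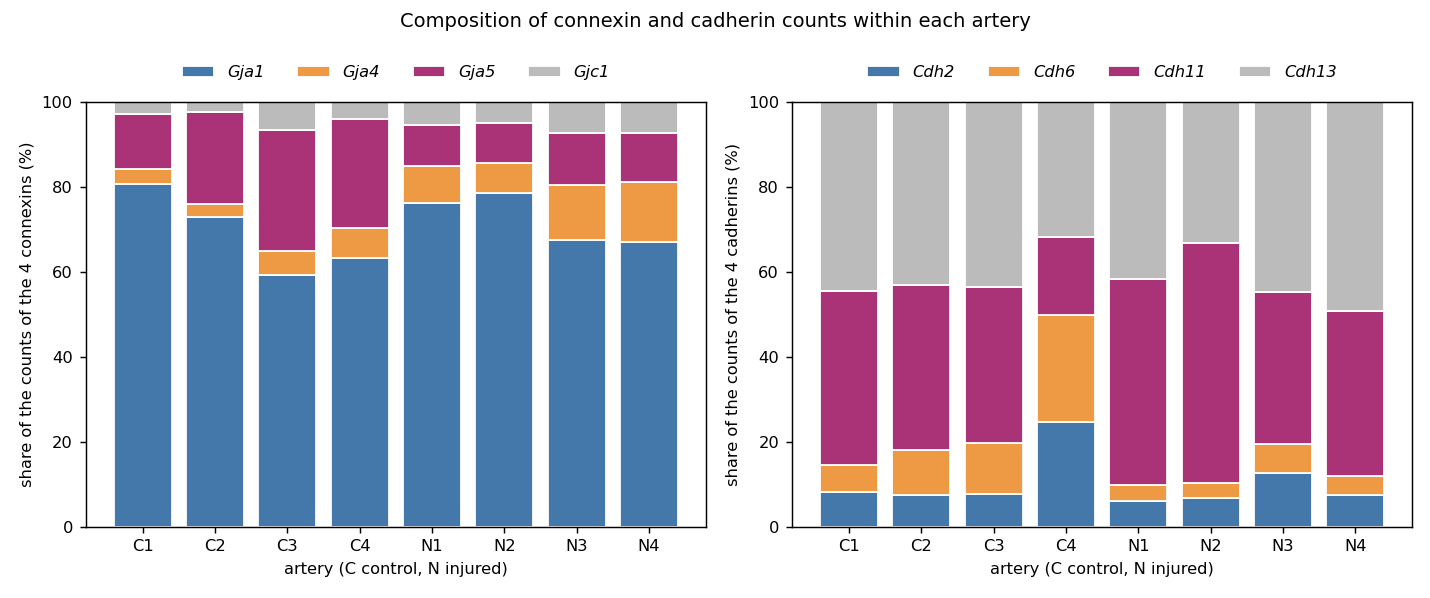
Share of each gene in the summed counts of the 4 connexins (left) and of the 4 cadherins (right) in each artery, in percent from 0 to 100, with C for control and N for injured arteries. The Gja5 part is narrower in every injured artery than in every control, the Gja4 parts of control artery 4 and injured artery 2 are level at 7.24 and 7.25%, and Cdh2 and Cdh6 are widest in control artery 4.

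Of 13 other connexins examined, 2 passed the filter on low counts and 1 was called, higher. Gjb2 (Cx26), a connexin of epithelia, went from 0, 3, 3 and 4 counts in the controls to between 11 and 41 counts in the injured arteries, with a log2 fold change of 3.04 (SE 0.75, edgeR FDR 0.0276). Both tested genes, Gjb2 and Gjc3, passed the filter through the injured arteries, where their counts were higher, so an upward direction was built into this count. Gjb2 was not called without the filter. Leaving out control artery 1, control artery 3, injured artery 1 or injured artery 4 also ended its call. Gjc3 had a log2 fold change of 2.42 (edgeR FDR 0.0795), and it was called without control artery 4. Gja6, Gja10 and Gjb1 had no count in any artery, which allows at most 0.168 to 0.246 CPM. Gjd2, the connexin of neurons, had 92 counts in control artery 4, 2 in injured artery 3 and none in the other arteries.

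Pannexins form channels that resemble those of connexins but do not normally join cells. Of the 2 that could be tested, 0 were called by edgeR and 0 by DESeq2, and 0 had an unadjusted p under 0.05. Panx2, known from brain, was at 31.1 CPM in control artery 4, at 8.09 CPM in injured artery 3 and at no more than 1.45 CPM in the other arteries. Panx1 was at 9.52 CPM in control artery 4 and 0.901 to 1.89 CPM in the other controls, against 2.97 to 13.4 CPM after injury. Both were called higher once control artery 4 was left out, with log2 fold changes of 2.34 for Panx1 and 3.69 for Panx2. Panx2 had 3, 2 and 4 counts in control arteries 1 to 3. It passed the low-count filter of that fit through the injured arteries, so its upward direction was built in.

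Among 7 proteins that scaffold, bind or modify connexins, 2 were called and both were lower. Nov (also named Ccn3), a secreted matricellular protein that binds Gja1, fell from 6011 ± 1946 to 1872 ± 229 CPM (mean ± SD of 4 arteries each). Its log2 fold change was -1.68 (SE 0.29, edgeR FDR 0.00644). Cav1, the main protein of caveolae, fell from 1334 ± 493 to 478 ± 71.3 CPM (mean ± SD of 4 arteries each). Its log2 fold change was -1.48 (SE 0.31, edgeR FDR 0.0137). For both, the lowest control, control artery 4, lay above the highest injured artery. Nov was called in all 8 fits that left out 1 artery, and Cav1 in all but those without injured artery 2 and without injured artery 4. The other 5, namely the scaffold Tjp1, the actin-binding Dbn1, the ubiquitin ligase Nedd4 and the kinases Src and Prkca, were not called, and the median of the 7 was -0.44.

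Among the cadherins, Cdh6 was the only one of the 4 that was called. Cdh6 is a type II cadherin of the developing kidney and neural crest. Its level was 41.6, 62.0, 76.2 and 103 CPM in control arteries 1 to 4 and 26.4, 27.5, 41.7 and 29.5 CPM in injured arteries 1 to 4. Injured artery 3, at 41.7 CPM, was level with control artery 1 at 41.6 CPM, and otherwise every injured artery was below every control. The mean fell from 70.6 ± 25.7 to 31.3 ± 7.09 CPM (mean ± SD of 4 arteries each). Its log2 fold change was -1.17 (SE 0.28, 95% interval -1.82 to -0.53, edgeR FDR 0.0246). The exact permutation p was 0.0571. Control artery 4 and injured artery 3, the arteries with high sympathetic neuron markers, were each the highest of their group. Without control artery 4 the log2 fold change was -0.94 (edgeR FDR 0.0191), and without both arteries it was -1.11 (edgeR FDR 0.00419), which was called. Of the 8 fits that left out 1 artery, 2 kept the call, those without control artery 1 and without injured artery 3. In the 5 others with a change above 2-fold the edgeR FDR was between 0.0503 and 0.0808. With library totals only, the log2 fold change was -1.01 (edgeR FDR 0.0518).

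Cdh2 encodes N-cadherin, the classical cadherin of smooth muscle and neurons. Its level was 52.3, 43.7, 48.7 and 99.7 CPM in control arteries 1 to 4 and 44.0, 55.8, 75.4 and 50.1 CPM in injured arteries 1 to 4. Control artery 4 was far above the other controls and injured artery 3 was the highest of its group, and without these arteries the levels were 43.7 to 52.3 CPM and 44.0 to 55.8 CPM. The log2 fold change was -0.12 (SE 0.29, 95% interval -0.79 to 0.55, edgeR FDR 0.816). It turned to 0.22 without control artery 4 (95% interval -0.21 to 0.64) and to 0.05 without both arteries, and neither was called.

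Cdh11 encodes a cadherin of fibroblasts and other mesenchymal cells. Its level was 262, 226, 231 and 74.6 CPM in control arteries 1 to 4 and 350, 462, 215 and 262 CPM in injured arteries 1 to 4. Injured arteries 1 and 2 were above every control, injured arteries 3 and 4 were not, and control artery 4 was lowest of all. The log2 fold change of 0.70 (SE 0.40, 95% interval -0.21 to 1.62, edgeR FDR 0.276) was not called. It was 0.42 without control artery 4. Without control artery 4 and injured artery 3, a fit chosen after seeing the data, it was 0.58 (95% interval 0.14 to 1.02, edgeR FDR 0.0480). That change was under 2-fold and was not called.

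Cdh13 encodes the lipid-anchored T-cadherin, which binds adiponectin and lipoproteins. Its level was 286, 252, 275 and 129 CPM in control arteries 1 to 4 and 302, 271, 269 and 330 CPM in injured arteries 1 to 4. Apart from control artery 4, all 7 arteries lay between 252 and 330 CPM. The log2 fold change was 0.31 (SE 0.24, 95% interval -0.25 to 0.87, edgeR FDR 0.427). Without control artery 4 it was 0.11 with a 95% interval of -0.14 to 0.35, the narrowest of the 8 genes in that fit, which excludes a 2-fold change in either direction.

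**Figure D4:**
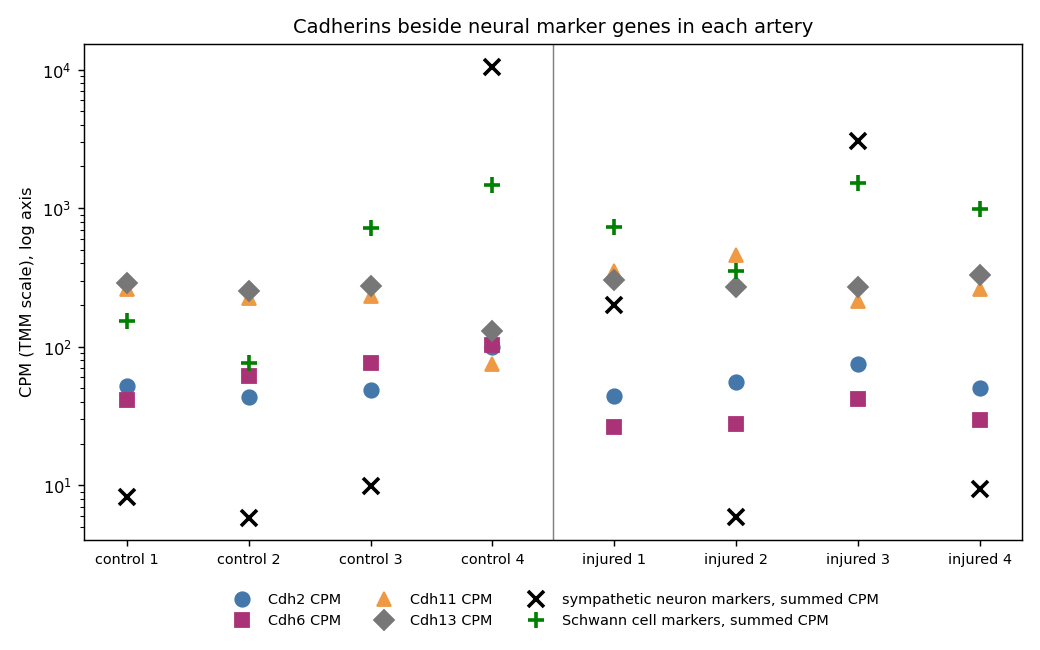
Level of Cdh2, Cdh6, Cdh11 and Cdh13 in each artery beside the summed levels of the sympathetic neuron and Schwann cell markers, in CPM on a log axis. Control artery 4 and injured artery 3 have the highest marker sums and the highest Cdh2 and Cdh6 of their groups, and the lowest Cdh11.

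Schwann cell markers summed to 1467 CPM in control artery 4 and 1532 CPM in injured artery 3, against 76.5 to 715 CPM in the other controls and 351 to 986 CPM in the other injured arteries. Of the 7 tested, 0 were called by edgeR and 0 by DESeq2, and 0 had an unadjusted p under 0.05. That was with all arteries, and Cdh19, which is on this list too, was called higher without control artery 4. Of the 9 sympathetic markers, Dbh, which makes noradrenaline, was at 3343 CPM in control artery 4 and at no more than 0.762 CPM in the other controls. The part of neural RNA in the levels of Cdh2 and Cdh6 was not tested.

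Within the counts of the 4 cadherins, 5843 to 12075 per artery, control artery 4 differed from the other controls. The shares of Cdh11 and Cdh13 were lowest there, at 18.4 and 31.8%, and those of Cdh2 and Cdh6 highest, at 24.5 and 25.3%. In the other controls Cdh6 took 6.47, 10.6 and 12.1%, and in the injured arteries it took 3.65, 3.37, 6.94 and 4.39%. Injured artery 3 and control artery 1 overlapped by a small margin (exact permutation p = 0.0571). The share of Cdh11 was 36.5 to 40.8% in controls 1 to 3 and 35.8 to 56.6% in the injured arteries, and its difference in means of 11.4 percentage points was within the spread (exact permutation p = 0.229). Cdh2 and Cdh13 also overlapped, with exact permutation p of 0.457 and 0.743. The ratio of Cdh6 to Cdh11 counts, chosen after the values were seen, was 0.159, 0.275, 0.331 and 1.38 in control arteries 1 to 4 and 0.0754, 0.0595, 0.194 and 0.113 in injured arteries 1 to 4, with injured artery 3 above the lowest control.

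Of 19 other cadherins, 11 were tested and 1 was called. Cdh5, VE-cadherin of endothelial junctions, was at 44.7, 77.3, 60.8 and 49.8 CPM in control arteries 1 to 4 and at 122, 116, 109 and 136 CPM in injured arteries 1 to 4, without overlap. It is also among the endothelial markers counted above. Its log2 fold change was 1.06 (SE 0.18, edgeR FDR 0.0063), and without control artery 4 it was 0.98 (edgeR FDR 0.00569), just under 2-fold. The call was also lost without control artery 1 and without injured artery 4. The median of the 11 that passed the filter was 0.25. Cdh19, a cadherin of Schwann cells, had a log2 fold change of 0.50 (SE 1.35) that was not called, with 85.2 CPM in control artery 4 and 0.902 to 4.37 CPM in the other controls against 9.65 to 73.2 CPM after injury. Cdh19 and the muscle cadherin Cdh15 were called higher without control artery 4. Cdh15 had 10, 0 and 3 counts in control arteries 1 to 3. It passed the low-count filter of that fit through the injured arteries, so its upward direction was built in. Cdh12, known from brain, had 145 counts in control artery 4, 22 in injured artery 3 and at most 1 in the other arteries.

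Catenins link cadherins to actin. They were examined together with the junction proteins Vcl and Mllt4 (afadin) and the beta-catenin inhibitor Ctnnbip1, and 12 genes of this mixed list were tested. By edgeR 0 of the 12 were called, by DESeq2 0, and 3 had an unadjusted p under 0.05 (Jup, Ctnna3 and Mllt4), all of them lower. Ctnna3, of low counts, just missed a call, with a log2 fold change of -1.04 (SE 0.30, edgeR FDR 0.0503). Its lowest control was at 1.181 CPM and its highest injured artery at 1.179 CPM. It was called lower with RLE factors, without control artery 4, and without control artery 4 and injured artery 3. Ctnnb1 (beta-catenin) was at 372 ± 52.2 CPM (SD, n = 4) in the controls and 362 ± 12.9 CPM (SD, n = 4) after injury, with a log2 fold change of -0.04 (SE 0.13, 95% interval -0.34 to 0.27). Ctnnd1 (p120-catenin), which holds cadherins at the membrane, had -0.06 (SE 0.15). Ctnna1 (alpha-catenin) and Vcl (vinculin), which bind actin, had -0.35 (SE 0.22) and -0.40 (SE 0.24). The median of these 12 genes was -0.31, against -0.06 over all genes tested. Ctnna2, of neurons, was at 108 CPM in control artery 4, at 31.5 CPM in injured artery 3 and at no more than 5.74 CPM in the other arteries.

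Of 7 transcription factors known from mesenchymal cells and from the control of cadherin genes, 2 were called, in opposite directions. Snai2 (Slug), a repressor of epithelial cadherins, was at 0.504 to 1.598 CPM in the control arteries and at 4.42 to 5.45 CPM in the injured arteries, with a log2 fold change of 2.30 (SE 0.35, edgeR FDR 0.00371). Twist2 was at 8.55 to 23.5 CPM and at 3.77 to 9.57 CPM, with a log2 fold change of -1.40 (SE 0.37, edgeR FDR 0.0361), and the groups overlapped through control artery 4. Snai2 was called in all 8 fits that left out 1 artery, Twist2 in those without control artery 4 and without injured artery 1. Zeb1 and Zeb2, related repressors, did not overlap between the groups but missed the 2-fold criterion, at -0.58 and 0.82 (edgeR FDR 0.0139 and 0.00621). Snai1, Twist1 and Prrx1 were not called. The median of the 7 was 0.70.

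Other cells also differed between the groups. Macrophage markers summed to 221 to 326 CPM in the control arteries and 1860 to 2747 CPM in the injured arteries, with 9 of the 10 tested called higher. Proliferation markers were at 11.5 to 20.9 CPM and 98.1 to 152 CPM, with 9 of 9 called higher, and skeletal muscle markers at 84.1 to 253 CPM and 225 to 886 CPM, with 6 of 8 called higher. Among those 6, at least Myh4, Myh2, Mylpf and Tnni2 had at most 9 counts in any control. They passed the filter on low counts through the injured arteries, so their upward direction was built in. Of the 8 fibroblast markers, 1 was called higher (Dpt) and 2 lower (Dcn and Pi16), and their sums of 1961 to 3904 CPM and 2036 to 3424 CPM overlapped. Of the 6 adipocyte markers 0 were called by edgeR and 1 by DESeq2, and 2 had an unadjusted p under 0.05, with sums of 81.1 to 782 CPM and 118 to 310 CPM. The part of these cells in the changes of the connexins and cadherins was not tested.

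The genes most like each member were found from the log2 CPM of the 8 arteries, each gene centred on its own mean, as those with the smallest root mean square difference among 11591 genes. Gja4 was nearest to Cmtm7 and Nrros, at 0.11 and 0.12 on the log2 scale, while Gja4 itself varied by 0.57 around its mean. Both of these genes were also low in the controls and higher after injury, at 9.001 and 20.8 CPM for Cmtm7 and 15.5 and 35.8 CPM for Nrros. Gja5 was nearest to Coq10b and B3galnt2, at 0.19 and 0.23, and Gja1 to Pmaip1 and Fam46a, at 0.24 and 0.26, the least close of the 8. Cdh6 was nearest to Pkia and Cds2 (0.15 and 0.18) and Cdh11 to Vcam1 and Emilin1 (0.15 and 0.17). Gjc1 was nearest to Net1 and Ephb3 (0.06 and 0.09), Cdh13 to Csf1 and Ccdc23 (0.07 and 0.08) and Cdh2 to Dedd2 and Agap3 (0.09 and 0.09). Among the members themselves, Gjc1 and Cdh13 were nearest, at 0.19, and Cdh6 and Cdh11 farthest apart, at 1.33.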

How the data were processed

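Whole carotid arteries (4 injured, 4 contralateral) were sequenced. The authors deposited raw counts per gene symbol without normalization. The submitters' processing notes name HISAT2 2.0.4. Counting tool, genome build and strand setting are not given in the sources used here, so overlapping genes are uncertain. Nothing in the labels says that each artery came from a separate rat, and p-values then measure the spread between these libraries. By the paper's account the controls were self-controls, so the main tests and exact permutation tests ignored a pairing within rats. Which arteries form a pair is not given. The edgeR package (version 4.0.16, R 4.3.3) was used with its filterByExpr filter, which left 14359 of 37209 genes, TMM scaling and a quasi-likelihood F test with no covariate. A call required FDR below 0.05 plus more than 2-fold change, the criteria of the study, which used DESeq. SE values came from the F statistic. DESeq2 1.42.0, other scalings and filters, a replicate block, a test against 2-fold and leaving out each artery were alternatives. Log2 CPM used a prior count of 2. On simulated counts with 200 genes changed 4-fold, edgeR called 145 of them and 4 unchanged genes among 14130 tested. That change was larger than the change of any called member, and no simulated artery stood apart as control artery 4 did. The simulation therefore does not give the share found for changes near 2-fold. Intervals and limits from counts cover counting error only. Members and gene lists were chosen with earlier results of these data known. Every member is named. Of the connexin, pannexin, partner, cadherin, catenin and mesenchymal factor lists, called genes are named, otherwise up to 4 of the most abundant. Markers are given as counts and sums with a few examples. Genes named for their level in single arteries were picked after their values were seen. Like genes had an average log2 CPM above 1 and no symbol starting with LOC, RGD, AABR or AC. RefSeq promoters (GRCr8) matched 4 of 8 members. Some genes of the lists are not reported here and were left out of the list counts.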

Additional observations from a re-analysis of the deposited data

Results flagged for a closer look

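Dixon's test at its 95% level was applied to 64 sets of 4 arteries. It divides the distance from the most extreme artery to its neighbour by the full range. The limit was passed in 8 sets, with about 3.2 expected by chance, and 5 of these were due to control artery 4. For Cdh2 the ratio was 0.847 (99.7 CPM against 52.3 CPM in the nearest control), for the Cdh2 share of the cadherin counts 0.962 (24.5 against 8.14%) and for the Cdh13 share 0.893 (31.8 against 43.2%). The summed sympathetic neuron markers gave 1.00 (0.9996 before rounding) in control artery 4, at 10526 against 9.91 CPM, and 0.936 in injured artery 3, at 3058 against 201 CPM. The summed brain neuron markers gave 1.00 in control artery 4, at 2365 against 6.81 CPM, and 0.881 in injured artery 3, at 596 against 80.5 CPM.

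The last was a connexin of low counts, Gjb2, which gave 0.844 in injured artery 4 (3.35 against 1.20 CPM).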

How the results depend on the processing

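The number of genes called was 1562, 2151 with DESeq2 (1549 shared), 1007 with at least 10 counts in every artery, 661 in a test against a fold change of 2, 2468 by FDR alone and 2473 without control artery 4 and injured artery 3, an alternative chosen after seeing the data. Leaving out 1 artery gave 1142 to 2398, the highest without control artery 4. Library totals moved the split of calls from 1193 higher and 369 lower to 1432 and 248. The members called were 3, against 1 with library totals, 0 in the test against a fold change of 2 and 0 to 2 with 1 artery left out. In that test no member was called, with unchanged log2 fold changes of 1.04 for Gja4, -1.23 for Gja5 and -1.17 for Cdh6. Gja5 also lost its call with upper-quartile factors (-1.17), library totals (-1.04) and no filter (-1.24), and Cdh6 with library totals (-1.01). Cdh2 turned to 0.046 with library totals and to 0.048 without control artery 4 and injured artery 3. With 1 artery left out, log2 fold changes ranged from -0.50 to 0.13 for Gja1, 0.94 to 1.16 for Gja4, -1.43 to -0.82 for Gja5, -0.30 to 0.22 for Cdh2 and -1.37 to -0.94 for Cdh6. The differences in share ranged from 4.77 to 7.05 percentage points for Gja4, -14.5 to -9.30 for Gja5, 1.75 to 3.13 for Gjc1, -5.24 to 0.447 for Cdh2, -11.4 to -5.14 for Cdh6 and -1.60 to 4.42 for Cdh13. Without control artery 4 and injured artery 3 they were 5.95 for Gja4, -10.8 for Gja5 and -2.43 for Cdh13, where 3 against 3 arteries allow no exact p under 0.1. The causes were not tested.

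Among the other connexins 2 were called with DESeq2, 0 without a filter, 0 with at least 10 counts in every artery, 0 in the test against a fold change of 2, 2 without both arteries and 0 to 2 with 1 artery left out. Pannexins had 2 calls without both arteries and 0 to 2 with 1 left out. Without control artery 4, Panx2 passed the filter through the injured arteries. Connexin partners had 0 in the test against a fold change of 2 and 1 to 2 with 1 left out. Other cadherins had 2 with DESeq2, 2 with library totals, 0 in the test against a fold change of 2, 5 without both arteries and 0 to 2 with 1 left out. Without control artery 4, Cdh15 passed the filter through the injured arteries. Catenins and their partners had 1 with RLE factors, 1 without both arteries and 0 to 1 with 1 left out. Mesenchymal factors had 1 with upper-quartile factors, 1 with at least 10 counts in every artery, 1 in the test against a fold change of 2 and 1 to 2 with 1 left out.

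The replicate numbers were not shown to pair the arteries, since deviations of same-numbered arteries correlated at 0.30, 0.45, -0.52 and -0.42 across 14359 genes. Adding the replicate block gave 1187 calls (1137 in common with the unblocked fit), 3 members among them, Gja4 at 1.05, Gja5 at -1.12 and Cdh6 at -1.12. The block left 1 call each among connexin partners (Nov) and mesenchymal factors (Snai2), and under it Cav1 and Twist2 were not called. The share differences of Gja4 (5.89) and Gja5 (-11.4) then had an exact p of 0.125, the smallest that 4 pairs allow.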
